A study of Mus musculus with 6 samples.

Results

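Cytosolic ribosomal protein genes encode the protein parts of the ribosome that translates messenger RNA in the cytoplasm. They were chosen by symbol: Rpl or Rps followed by a digit, together with Rpsa, Rplp0, Rplp1, Rplp2 and Fau, leaving out the Rps6k kinases and symbols that contain -ps, the mark of a pseudogene. The rule found 89 of the 15667 genes in the table, and all 89 had a mean of at least 1 CPM (counts per 1000000 reads), the level needed to enter the test. By symbol, 52 belonged to the large subunit and 35 to the small subunit. The other 2, Rps19bp1 and Rps23rg1, match the rule but do not encode ribosomal proteins. In all, 11 members were paralogs, retrocopies or these 2 genes, which leaves 78 standard ribosomal protein genes. Rack1, a protein bound to the small subunit, lies outside the rule.

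The libraries came from ear skin of female B6;129-Adipoq tm1Chan/J mice, KO for adiponectin, a hormone secreted by fat cells (Adipo-/-, n = 3), and of WT littermates (Adipo+/+, n = 3). Mice were 7 to 8 weeks old, and in both groups 10 Ixodes scapularis nymphs had been placed on each mouse. At 48 h a single 3.5 mm punch was taken at the tick bite site of each mouse. The null allele is present in every cell of the KO mouse, and whole punches mix many cell types, so fewer cells of a type and less RNA per cell cannot be told apart. Unbitten skin was not analysed here, so a difference in the response to the bite and one present before it cannot be told apart.

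Each ribosome holds a single copy of most of these proteins, the stalk proteins Rplp1 and Rplp2 being the main exception, so cells make them in closely matched amounts. Their transcripts start with a run of pyrimidines (C or T in the DNA), the terminal oligopyrimidine or TOP motif, through which mTORC1, a kinase complex that senses nutrients and growth signals, controls their translation. That control acts on the use of the transcripts and is not seen by RNA-seq.

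A long pyrimidine run was more frequent at the reference start sites of the family than at those of other genes, though most members examined had none of the length searched. RefSeq promoters (GRCm38.p6, 250 bases before to 50 bases after the annotated start) matched 68 of the 89 members by symbol. A run of at least 10 C or T bases, read on the strand of the gene within 15 bases of the start, was found in 33.8% of these 68 members and in 6.18% of 26957 other genes. The median longest run was 7 bases in members and 5 bases in the others. The runs counted could lie on either side of the start. Some clear examples are shown because such a run is the feature by which the family's transcripts are known. They were taken from runs that span the annotated start. Each run shown begins 2 to 14 bases before the start, so part of it lies outside the annotated transcript. Each example has 15 bases on either side of the start, with the run in capitals.
Rpl7a (chr2:26910792-26910821, plus strand): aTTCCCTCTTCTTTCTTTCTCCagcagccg
Rpl35 (chr2:39005117-39005146, minus strand): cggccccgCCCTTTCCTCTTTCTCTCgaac
Rpl15 (chr14:18270972-18271001, minus strand): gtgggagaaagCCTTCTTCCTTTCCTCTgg
Rps10 (chr17:27635230-27635259, minus strand): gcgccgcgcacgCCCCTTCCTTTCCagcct
Rps18 (chr17:33955651-33955680, minus strand): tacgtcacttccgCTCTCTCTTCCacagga
Rplp2 (chr7:141447636-141447665, plus strand): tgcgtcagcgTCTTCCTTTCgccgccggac

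Other short motifs were searched on both strands of the same promoters. CCGGAAG, bound by ETS factors, was present in 36.8% of members and 9.86% of other genes. The palindrome CTCGCGAGA was present in 10.3% against 0.738%, and AAGATGGCG, a YY1 motif, in 5.88% against 1.63%. The GC box GGGCGG was found in 60.3% against 38.1%, and TATAAA in 11.8% against 15.7%. A match of letters is a description and does not show that a factor binds.

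A second set of sequences bears on Rpl30, the single member at an unadjusted p below 0.05 in limma (adjusted p = 0.998). This 1 member is 1.12% of the family, near the 1.06% of all genes tested that were higher at that level. The table holds 3 further genes that carry near copies of its coding sequence of 345 bases in GENCODE M21: Gm12191, Gm7429 and Gm5481. Gm12191 differed from Rpl30 at 1 base and Gm7429 at 4 bases, while Gm5481 differed at 15. Counting from 1 at the first base of the Rpl30 start codon, with the base of Rpl30 first, the sole substitution in Gm12191 was G96A. Gm7429 carried G61T, G96A, G183A and A279T. The windows at coding positions 82 to 111 show the single difference between Rpl30 and Gm12191, with position 96 in capitals. All other substitutions of Gm7429 and Gm5481 lie outside this window.
Rpl30: gtgctgggctacaaGcagactctgaagatg
Gm12191: gtgctgggctacaaAcagactctgaagatg
Gm7429: gtgctgggctacaaAcagactctgaagatg
Gm5481: gtgctgggctacaaAcagactctgaagatg

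WT libraries had an implied depth of 4131361 to 6065606 reads and KO libraries one of 3403711 to 6591523, and 3 reads were worth 0.455 to 0.881 CPM. Adipoq, the targeted gene, was at 30.5, 63.7 and 49.6 CPM in WT and at 0, 0.560 and 0 CPM in KO mice. The ribosomal RNA precursor Rn45s took 7.99% to 11.4% of reads in WT and 9.996% to 10.8% in KO libraries. Hair follicle markers (22 of 22 genes tested) summed to 30.3 to 24592 CPM in WT and at 1028 to 9766 CPM in KO, and epidermal markers (17 of 18) to 40275 to 53081 and 49141 to 67524 CPM. Skeletal muscle markers (19 of 19) summed to 14651 to 19168 CPM in WT and at 8938 to 18433 CPM in KO. No marker of these 3 lists was at 0 in all libraries. By log2 fold change of KO against WT, 19 of 19 muscle markers were lower (median -0.51). Higher were 21 of 22 hair follicle (median 2.51) and 14 of 17 epidermal markers (median 0.11), with overlapping groups for every gene of both lists. Summed hair follicle markers were at 30.3, 37.8 and 24592 CPM in WT (replicates 1, 2 and 3). In KO they were at 1959, 9766 and 1028 CPM. WT replicate 3 was thus the highest library, and WT replicates 1 and 2 lay below every KO library. Of 2 further lists, 13 of 14 adipocyte markers, Adipoq among them, were lower (median -0.83) and 11 of 11 cartilage markers higher (median 0.56). The part of tissue mixture in the values below was not tested unless a value is given.

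Ribosomal protein transcripts took a nearly fixed share of the bitten skin transcriptome. The 89 members summed to 17445, 18516 and 18258 CPM in the WT mice (replicates 1, 2 and 3), and to 19238, 17798 and 17680 CPM in KO. KO replicate 1 was the highest library and the other two KO libraries lay within the WT range, with means of 18073 ± 559 CPM in WT and at 18239 ± 867 CPM in KO mice (SD, n = 3). The rows of the members thus made up 1.74% to 1.92% of each library. Genes that carry near copies of members, described below, held a further 2067 to 2423 CPM per library. With Rn45s left out of the library totals, the means were 19896 ± 213 and 20361 ± 994 CPM.

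The balance of the subunits was as even. Large subunit members summed to 10404 ± 355 CPM in WT and at 10413 ± 587 CPM in KO mice, and small subunit members to 7633 ± 228 and 7793 ± 277 CPM (SD, n = 3). The ratio of small to large was 0.742, 0.741 and 0.718 in WT and 0.731, 0.759 and 0.757 in KO. KO replicate 1 lay within the WT range and the other two KO libraries lay above it, so the groups overlapped. This ratio does not depend on the library total, but it leaves out the genes that carry near copies of members.

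In the comparison of KO with WT at the tick bite site, no member passed the test. In limma with Benjamini-Hochberg adjustment over 14306 genes, the adjusted p of the members was 0.998 to 0.999. Over all genes, 0.00699% were called higher (Gm12191) and 0.00699% lower (Adipoq). At an unadjusted p below 0.05, 1 member was higher in KO, which is 1.12% of members beside 1.06% of all genes tested, and 0 were lower beside 1.82%. The first share was near the background. KO values all lay above WT values in 4 members (Rpl30, Rps9, Rpl6 and Rpsa), or 4.49% beside 2.95% of all genes. They all lay below in 2 members, Rps19bp1 among them, or 2.25% beside 4.89%.

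**Figure D1:**
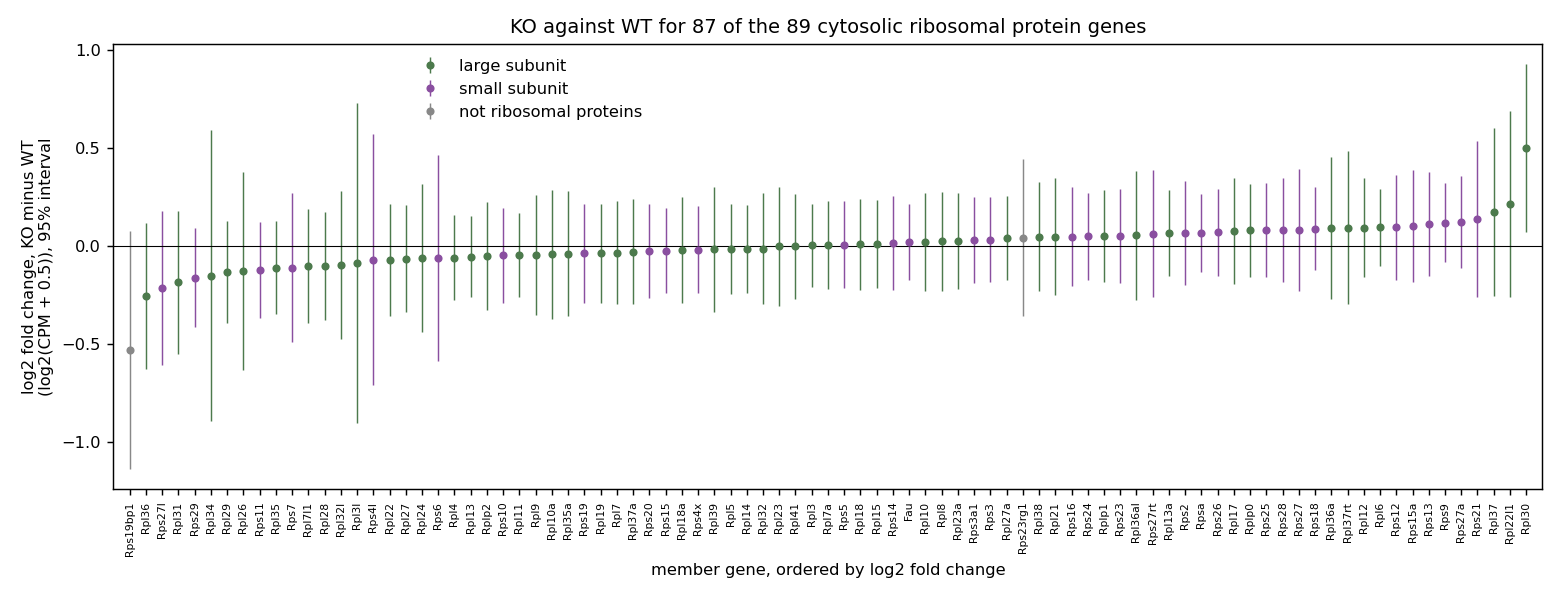
Log2 fold change of KO against WT on the log2(CPM + 0.5) scale for 87 of the 89 members, ordered by size; points are limma estimates, bars are 95% intervals and colour gives the subunit. Of the intervals drawn, 86 include 0, and that of Rpl30 at the right end runs from 0.07 to 0.93.

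The family kept close to 0. Log2 fold changes of members on the log2(CPM + 0.5) scale had a median of 0.005 and an SD of 0.12, beside a median of -0.03 and an SD of 0.34 over all genes tested. Positive values were found in 46 members and negative ones in 43. Within 0.2 of 0 lay 84 of 89 members (94.4%), 63.8% of all genes and 83.7% of the 1946 other genes averaging 100 CPM or more. The median was -0.016 for the large subunit and 0.048 for the small subunit. For the 78 standard genes it was 0.006, and for the other 11 members it was -0.07.

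**Figure D2:**
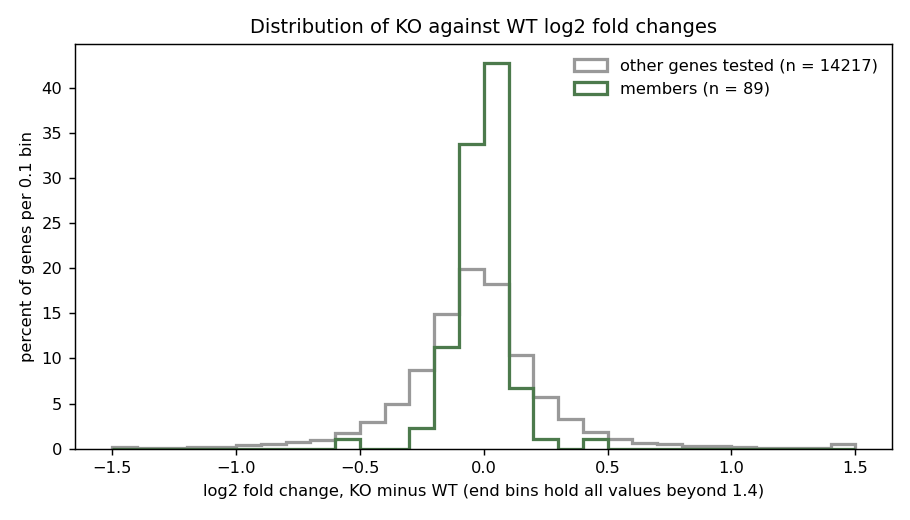
Percent of genes in each 0.1-wide bin of the log2 fold change of KO against WT, for the 89 members and the 14217 other genes tested. The members form the narrower peak, with an SD of 0.12 beside 0.34 for all genes.

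How small a change these libraries could bound depended on the level of the gene and on its spread between mice. All 56 members with a mean of at least 100 CPM had log2 fold changes between -0.16 and 0.12, and the 95% interval of each stayed within a 1.5-fold change in either direction. Over the whole family this held for 78 of 89 intervals. Most of the members left out were low, such as Rpl34 with an interval from -0.89 to 0.59 and Rpl3l from -0.90 to 0.73. Rpl36 was left out at a mean of 70.1 CPM, with an interval from -0.63 to 0.12. Its SD within groups was 0.22 on the log2 scale, beside a median of 0.12 over members. For each member left out, a change of 1.5-fold in at least 1 direction lay within the interval. The fewest reads implied for a member in a library were 17, for Rps19bp1.

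Members also varied little among the 6 mice. The range of a member over all 6 libraries had a median of 0.30 on the log2 scale, beside 0.68 for all genes tested and 0.39 for other genes averaging 100 CPM or more. It was below 0.5 for 72 of 89 members (80.9%), for 32.9% of all genes and for 64.3% of the other genes averaging 100 CPM or more. Fau, whose protein is a ubiquitin-like domain fused to the small subunit protein Rps30, had the narrowest range of the members. It was at 325, 324 and 327 CPM in WT and at 324, 332 and 333 CPM in KO mice.

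What variation there was had a pattern by library. KO replicate 1 held the highest value of the 6 libraries for 37 members, and WT replicate 1 the lowest for 29. The median difference of members from their WT mean was, by replicate, -0.06, 0.04 and 0.02 in WT and 0.09, -0.01 and -0.03 in KO. KO replicate 1 also had the greatest implied depth, and WT replicate 1 the largest share of Rn45s. With Rn45s left out of the totals, members summed to 19699, 20123 and 19866 CPM in WT (replicates 1, 2 and 3). In KO the sums were then 21495, 19943 and 19644 CPM. KO replicate 1 stayed the highest library, and WT replicate 1 was no longer the lowest. The part of depth was not tested, nor that of Rn45s beyond this rescaling. With KO replicate 1 left out, the median log2 fold change of the family and of its subunits stayed within -0.06 to 0.07, as it did without any other library.

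**Figure D3:**
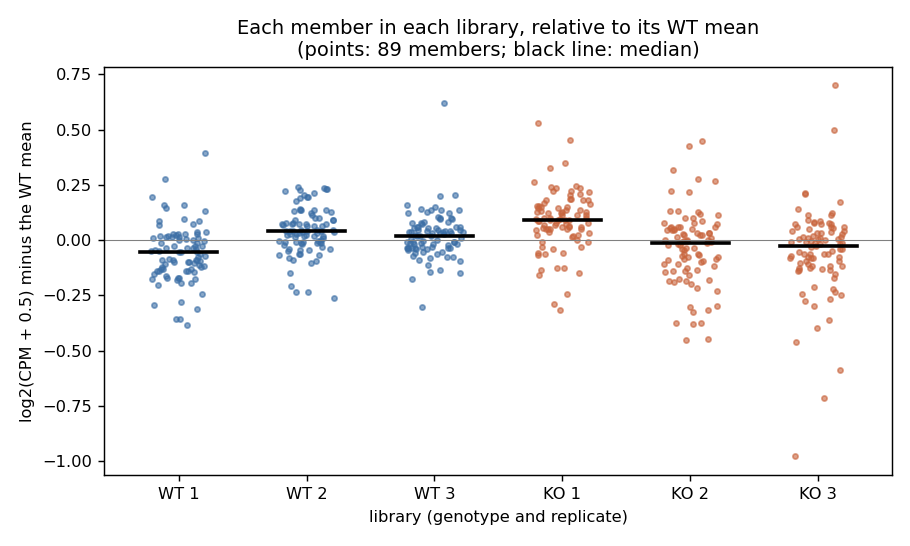
Log2(CPM + 0.5) of each of the 89 members in each library, minus the WT mean of that member; points are members and the black line is their median. The medians lie between -0.06 in WT replicate 1 and 0.09 in KO replicate 1.

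The acidic stalk of the large subunit, which recruits the elongation factors, is built on Rplp0. Rplp0 was the highest member of all, at 1124, 1257 and 1234 CPM in WT and at 1335, 1253 and 1228 CPM in KO mice, with a log2 fold change of 0.08 (SE 0.10) and overlapping groups. Its partner Rplp1 was at 290 to 310 CPM in WT and at 277 to 327 CPM in KO, with a log2 fold change of 0.05. Rplp2 was at 90.8 to 105 and 90.3 to 109 CPM, with a log2 fold change of -0.05. None of the 3 stalk genes differed beyond the spread of its replicates.

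Rpl5 and Rpl11, which join a small ribosomal RNA before entering the large subunit and bind the p53 inhibitor Mdm2 when assembly is disturbed, were equally level. Rpl5 was at 283, 315 and 318 CPM in WT and at 321, 301 and 283 CPM in KO. Rpl11 was at 110, 109 and 111 CPM in WT and at 108, 102 and 110 CPM in KO. The log2 fold changes were -0.02 (SE 0.10) and -0.05 (SE 0.09), and both pairs of groups overlapped. Rpl4, on the wall of the exit tunnel, was the member next to Rplp0 in level, at 835 to 908 CPM in WT and at 833 to 861 CPM in KO, with a log2 fold change of -0.06. Rpl10, a late-joining protein near the catalytic centre, was at 218 to 249 CPM and 215 to 256 CPM, with 0.02. Rpl38, required in mice for normal patterning of the axial skeleton, was at 42.9 to 51.9 CPM and 47.3 to 51.0 CPM, with 0.05.

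In the small subunit, Rps9, a core protein that is important for decoding accuracy, and Rpsa, which is also known as the laminin receptor, were members whose groups did not overlap. Rps9 was at 403, 397 and 395 CPM in WT and at 447, 436 and 414 CPM in KO mice. Every KO value exceeded every WT value, but the log2 fold change was only 0.12 (SE 0.09), with an unadjusted p of 0.210 in limma. Rpsa was at 512, 515 and 493 CPM in WT and at 527, 537 and 528 CPM in KO, a log2 fold change of 0.07 (SE 0.09). Rpl6 of the large subunit, at 276, 268 and 278 CPM in WT and at 302, 286 and 291 CPM in KO, had a log2 fold change of 0.09 (SE 0.09). Each of these 3 differences was less than 1.5 times its standard error in limma, which draws partly on the spread of other genes. The SD within groups of the genes themselves was smaller, at 0.041 for Rps9, 0.026 for Rpsa and 0.034 for Rpl6 on the log2 scale.

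Other small subunit genes overlapped between groups. Rps2, the third highest member, was at 585.4 to 710 CPM in WT and at 641 to 742 CPM in KO, with a log2 fold change of 0.07. Rps3, at the entry channel of the messenger RNA, was at 337 to 361 CPM and 344 to 384 CPM, with 0.03. Rps19, the gene most often mutated in Diamond-Blackfan anaemia, was at 183 to 214 CPM and 181 to 213 CPM, with -0.04. Rps27a, made as a fusion with ubiquitin, was at 111 to 125 CPM and 120 to 135 CPM, with 0.12 (SE 0.10). Beside the family, Rack1 was at 459 to 513 CPM and 468 to 522 CPM, with 0.02.

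Rpl30 was the only member at an unadjusted p below 0.05. It encodes a large subunit protein at the interface of the subunits that also takes part in the reading of selenocysteine codons. Rpl30 (chromosome 15, 34440508 to 34443276, minus strand, GRCm38) was at 13.5, 15.5 and 17.8 CPM in WT and at 22.6, 18.8 and 25.5 CPM in KO mice, from 56 to 149 implied reads per library. All KO values lay above the WT values, with means of 15.6 ± 2.18 and 22.3 ± 3.38 CPM (SD, n = 3). The log2 fold change was 0.50 (SE 0.19, 95% interval 0.07 to 0.93, unadjusted p = 0.0278, adjusted p = 0.998 in limma). The unadjusted p was 0.0637 with hair follicle markers as a covariate, where the log2 fold change was 0.45. It was 0.0648 to 0.0967 when WT replicate 1 or 2, or KO replicate 1 or 3, was left out, with log2 fold changes of 0.40 to 0.50.

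The value of Rpl30 cannot be read apart from its copies. Gm12191, a processed pseudogene that RefSeq places on chromosome 11 (49678620 to 49679143), is listed in the deposited table on the Rpl30 locus itself (chromosome 15, 34440506 to 34443233). It was at 42.2, 41.7 and 42.0 CPM in WT and at 148, 128 and 142 CPM in KO mice. Gm12191 rose, with a log2 fold change of 1.72 (SE 0.10, adjusted p = 0.00322 in limma), and its means differed 3.32-fold. Its adjusted p was 0.0811 with the muscle covariate and 0.0614 without WT replicate 2, where the log2 fold change was still 1.72 and 1.71, and 0.000840 to 0.0811 over all alternatives. Gm7429 (chromosome X, 114980925 to 114981385) went the other way, at 20.3, 21.6 and 20.9 CPM in WT and at 16.3, 12.6 and 15.01 CPM in KO. Its groups did not overlap, with a log2 fold change of -0.51 (unadjusted p = 0.0143, adjusted p = 0.998). Gm5481 was below 1 CPM on average and was not tested.

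Adding up the 4 genes, an alternative chosen after seeing the data, puts all reads that carry this coding sequence together. The sum was 77.2, 79.1 and 81.6 CPM in WT and at 188, 159 and 183 CPM in KO mice, 2.23-fold apart in the means. Its log2 fold change was 1.15 (SE 0.10, adjusted p = 0.0331 in limma), making 1 member of 89 past the adjusted threshold. The 0.007% of all genes called higher was this same sum. Gm12191, which passed the threshold by itself, held most of the sum. The call is thus not separate evidence for Rpl30, whose own adjusted p was 0.998 in limma. Rpl30 with Gm12191 alone came to 55.7, 57.2 and 59.8 CPM in WT and at 171, 147 and 167 CPM in KO, with a log2 fold change of 1.48 (SE 0.10, adjusted p = 0.00539). The adjusted p of the sum over 4 genes lost the threshold without WT replicate 1 or 2 or any of the KO replicates (0.0674 to 0.476), while its log2 fold change stayed between 1.10 and 1.22 over all 6 omissions. That of Rpl30 with Gm12191 lost it when WT replicate 2, or KO replicate 1 or 3, was left out (0.0733 to 0.107). Over all alternatives the adjusted p was 0.0184 to 0.607 for the 4 genes and 0.00323 to 0.131 for Rpl30 with Gm12191, in both cases highest when limma was run without its mean-variance trend. With muscle markers as a covariate these were 0.254 and 0.0855.

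The shares within the sum of the 4 genes differed as well. Rpl30 held 17.5% to 21.9% of it in WT and 11.8% to 13.96% in KO mice. Gm12191 held 51.5% to 54.6% in WT and 77.7% to 80.3% in KO, and Gm7429 25.7% to 27.3% and 7.92% to 8.64%. The shares of these 3 genes did not overlap between the genotypes, while that of Gm5481 did (0.514% to 1.57% and 0% to 0.645%). The authors' expectation-maximization step divides reads that fit several genes, so which of the 4 genes the added KO reads came from cannot be told from the table.

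**Figure D4:**
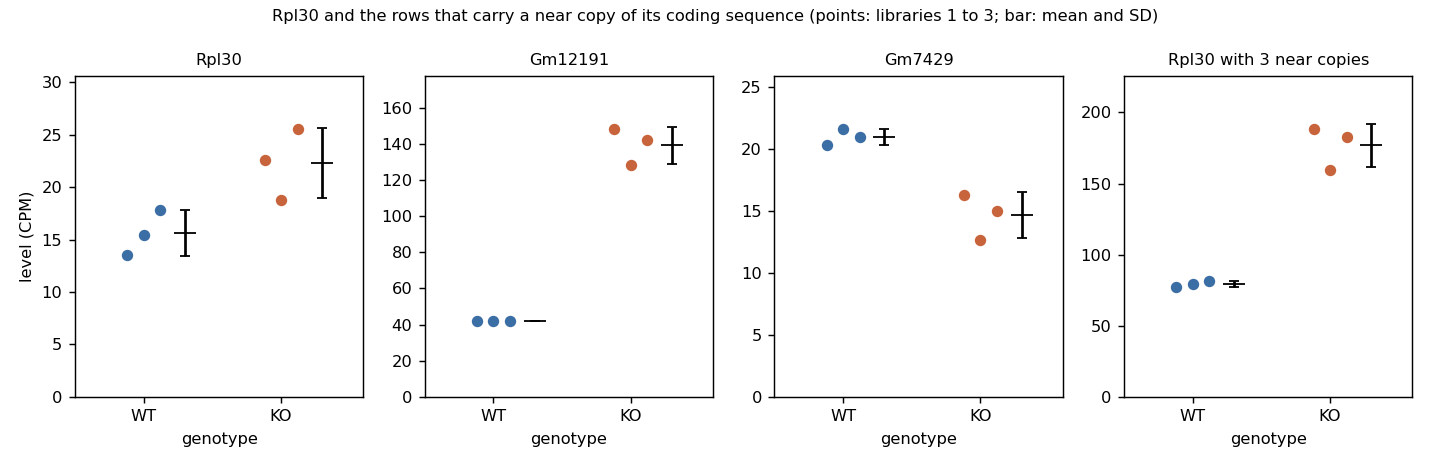
Level in CPM of Rpl30, Gm12191, Gm7429 and of Rpl30 summed with its 3 near copies in each WT and KO library; points are libraries, bars are the group mean and SD, and each panel has its own axis from 0. Gm12191 lies near 42 CPM in WT and at 128 to 148 CPM in KO, and the KO values of Gm7429 lie below its WT values.

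Rpl30 is not alone in having copies in the table. A non-member at least 95% identical over at least 80% of the coding sequence, or named as a pseudogene of the member, was found for 16 members, 20 such genes in all. For 4 of the 16 the member itself held under 15% of the sum: Rps6, Rpl34, Rpl26 and Rpl30. Rps6, the small subunit protein phosphorylated downstream of mTORC1, was at 10.1, 14.8 and 13.4 CPM in WT and at 13.8, 13.1 and 9.70 CPM in KO. Its pseudogene Rps6-ps4, identical at 747 of 747 coding bases, was at 733, 704 and 745 CPM in WT and at 793, 793 and 715 CPM in KO. The Rps6 row thus held 1.64% of the sum, whose log2 fold change was 0.07 (SE 0.10).

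For the 15 members other than Rpl30, summing with near copies gave log2 fold changes of -0.12 to 0.21, and 0 were at an unadjusted p below 0.05, beside 1.06% higher and 1.81% lower among all genes. Rpl26 with Gm15772 came to 168 ± 25.8 CPM in WT and at 169 ± 11.6 CPM in KO mice, and Rpl34 with Rpl34-ps1 to 93.4 ± 4.88 and 89.96 ± 10.8 CPM (SD, n = 3). The groups overlapped for both sums.

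**Figure D5:**
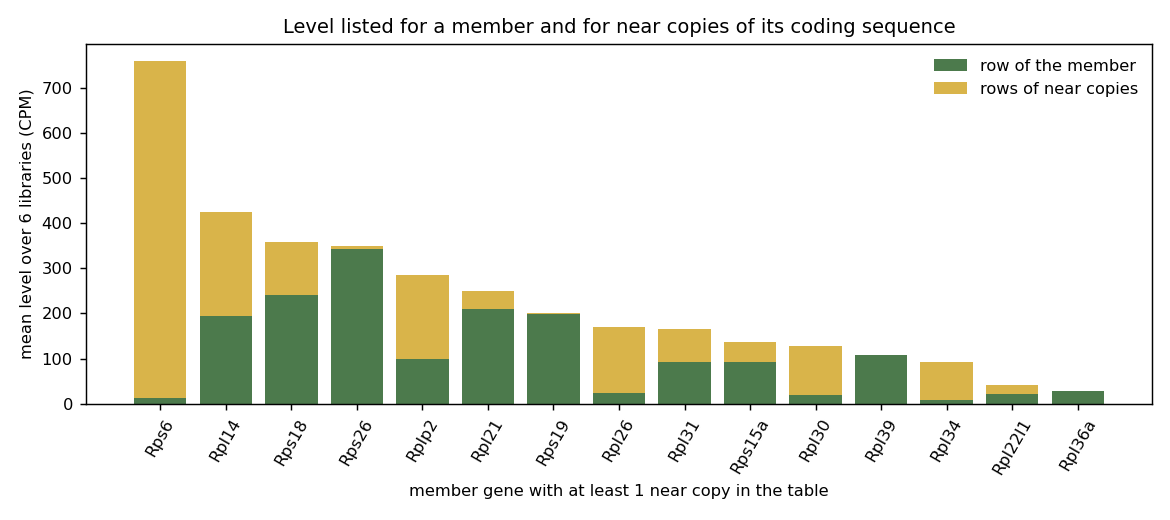
Mean level over the 6 libraries, in CPM, of 15 of the 16 members with near copies in the table, divided into the row of the member and the rows of its copies. Rps6 holds 1.64% of its bar, Rpl34 9.66%, Rpl26 14.4% and Rpl30 14.8%.

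How even the family looks also depended in part on copies. Per kilobase of GENCODE transcript, the 78 standard genes had a median level of 223 CPM per kilobase, from 14.2 for Rps6 to 912 for Rplp0. The SD over genes was 1.27 on the log2 scale. With near copies and retrocopies added, the median was 262 CPM per kilobase and the SD was 1.01. These levels depend on the annotated transcript chosen for each gene, and that of Rps20 is long for its coding sequence (3706 and 357 bases).

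The retrocopies within the family share their reads in the same way. Rps27 and Rps27rt were identical at 252 of 252 coding bases, and both are listed on the Rps27 locus on chromosome 3, although RefSeq places Rps27rt on chromosome 9. Together they came to 81.9 ± 8.29 CPM in WT and at 86.2 ± 9.01 CPM in KO mice. Rpl37 and Rpl37rt differed at 1 of 291 bases and came to 99.7 ± 19.6 and 106 ± 8.40 CPM (SD, n = 3). Fau is listed on chromosome 16, whereas RefSeq places it on chromosome 19. In all, 87 of 89 members overlapped the RefSeq gene of their name.

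Rpl3l, the striated muscle form of Rpl3, was low, at 8.23, 9.15 and 17.0 CPM in WT and at 8.65, 7.85 and 15.6 CPM in KO mice. Both high values came from replicate 3 of a genotype, the libraries with the highest summed muscle markers of their group (19168 and 18433 CPM). Its log2 fold change was -0.09 (SE 0.35), and 0.47 (unadjusted p = 0.176) with the muscle score as a covariate. Rpl3 itself was at 335 to 363 CPM in WT and at 335 to 364 CPM in KO.

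Rpl22l1, whose level is known to be held down by Rpl22, was at 14.8 to 22.6 CPM in WT and at 20.1 to 26.3 CPM in KO, with a log2 fold change of 0.21 (SE 0.21). Rpl22 was at 118 to 155 and 120 to 134 CPM, with -0.07. Rps27l, a p53 target, was at 23.8 to 32.2 CPM and 21.2 to 26.9 CPM, with -0.22 (SE 0.17). Rpl7l1, a factor of large subunit assembly, averaged 52.9 CPM over the 6 libraries, with -0.10. Rpl36al averaged 99.4 CPM, above the 28.7 CPM of Rpl36a, with 0.05. Rps4l, a retrocopy, was at 22.5, 19.9 and 18.1 CPM in WT and at 22.9, 25.2 and 12.05 CPM in KO, and KO replicate 3 was its lowest library. Groups of Rpl22l1, Rpl22, Rps27l, Rpl7l1, Rpl36al and Rps4l overlapped. Rpl10l, Rpl26l1 and Rpl39l were not analysed here.

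The lowest member was Rps19bp1, which encodes a binding partner of Rps19 and activator of Sirt1. It was at 9.92, 12.2 and 9.07 CPM in WT and at 8.65, 7.85 and 4.99 CPM in KO mice. All KO values were below the WT values, with a log2 fold change of -0.53 (SE 0.26, unadjusted p = 0.0783 in limma). With the muscle score as a covariate it was -0.85 (unadjusted p = 0.0183), and Rps4l was then at -0.55 (unadjusted p = 0.0320).

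Genes that make or use the ribosome showed no adjusted change either. The counts at an unadjusted p below 0.05, for these lists and those that follow, stand beside 1.06% higher and 1.82% lower among all genes tested. Among translation factors and other TOP transcripts, 24 of 25 listed genes were tested, 0 were at an unadjusted p below 0.05 in either direction and the median log2 fold change was -0.02. For 27 initiation factors the count was also 0 in either direction, with a median of -0.04. Ribosome biogenesis factors (99 of 100 tested) had a median of -0.01, with 0 higher and 1 lower. That gene was Utp3, a factor of small subunit processing, at 47.9, 49.6 and 45.2 CPM in WT and at 43.4, 37.8 and 34.1 CPM in KO, with a log2 fold change of -0.31 (unadjusted p = 0.0470, adjusted p = 0.998 in limma).

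Host genes of small nucleolar RNAs, which guide the modification of ribosomal RNA, had the highest median of these lists, 0.17 over 20 genes, with 1 higher and 0 lower. Snhg18 was at 1.69, 3.66 and 2.31 CPM in WT and at 5.16, 7.01 and 3.82 CPM in KO, with a log2 fold change of 0.95 (unadjusted p = 0.0305, adjusted p = 0.998). Such levels rest on few reads.

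Among 25 of 26 mTORC1 pathway genes tested, 0 were higher and 1 was lower, with a median of 0.06. The lower gene, Eif4ebp1, encodes a repressor of cap-dependent initiation that mTORC1 switches off, and was at 22.3, 21.97 and 17.1 CPM in WT and at 11.7, 15.7 and 14.98 CPM in KO. Its log2 fold change was -0.52 (unadjusted p = 0.0269, adjusted p = 0.998). Of 28 genes of the ATF4 amino acid and stress response, 1 was higher and 2 were lower, with a median of -0.09. Psat1, an enzyme of serine synthesis, had a log2 fold change of 0.42, and the stress regulators Atf3 and Ddit3 had -0.49 and -0.83. For p53 targets (19 of 20 tested) 0 were at this level in either direction, with a median of -0.19.

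The 78 mitochondrial ribosomal protein genes, which serve the separate ribosome of mitochondria, gave a median of -0.04, with 1 higher and 2 lower. Groups did not overlap in 11 of the 78. KO lay above WT in Mrpl1, Mrpl18 and Mrps30, and below WT in the rest of the 11. Among all genes tested, KO lay above WT in 2.95% and below in 4.89%. Mrpl18 had a log2 fold change of 0.40, and Mrpl39 and Mrps6 had -0.53 and -0.55, none passing the adjusted threshold. Their sum was 1306 ± 62.5 CPM in WT and at 1282 ± 104 CPM in KO mice (SD, n = 3). The 9 genes with Rpl or Rps names that mark pseudogenes had a median of 0.02 and 0 at an unadjusted p below 0.05.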

How the data were processed

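Ear skin RNA from 3 WT and 3 KO mice was prepared with TruSeq and sequenced on an Illumina HiSeq. The authors aligned reads to mm10 with STAR 2.7.3a and quantified genes by expectation-maximization in Partek Flow, which divides reads among the genes they fit. The deposited values are CPM (counts per 1000000 reads of the library) plus an offset of 0.0001, which was removed. Whether read strand was used is not stated, so overlapping genes can share reads. Groups were taken from the sample labels. All 6 columns were used.

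Genes averaging 1 CPM or more were tested as log2(CPM + 0.5) with limma 3.58.1 in R 4.3.3 (lmFit, eBayes with trend, two-sided, no covariate, Benjamini-Hochberg over 14306 genes). This scale understates the change of low genes. An exact permutation test of 3 against 3 libraries cannot go below p = 0.1. The test was checked on simulated data in which every gene was given the same spread between mice, so the check does not cover spread that differs by gene. Depth was implied from the lowest values, multiples of the CPM of 1 read, of which 91.9% to 92.8% were within 0.1 of a whole read. Since the rest were fractions, no count model was fitted. Nothing says more than that each library is a separate mouse, so p-values rest on the spread between mice of a group. In limma the spread of a gene is drawn toward the trend over genes of like level. For a steady gene the SE is therefore larger than its own spread would give.

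Near copies were found with blastn 2.17.0 among GENCODE M21 transcripts. The 89 members and all lists were chosen with earlier results of these data known. Named genes were fixed by role, as paralogs, by the smallest p among members with separate groups (up to 5 per direction), and as the 3 highest, lowest and widest-ranging. Other genes were named after their values were seen. Alternatives were other pseudocounts (0.1 and 2), filters (none and 5 CPM), scalings, covariates (the mean of the muscle or hair follicle markers), no trend, a replicate block, omission of each library, and sums over copies. Values of a few single genes are not reported here.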

Additional observations from a re-analysis of the deposited data

How the results depend on the processing

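The count of members higher at an unadjusted p below 0.05 went from 1 to 0 with the hair follicle covariate, and was 0 to 1 when single libraries were left out. The count of lower members was 2 with the skeletal muscle covariate (Rps19bp1 and Rps4l, 2.25% of members beside 3.03% of all genes lower at that setting), and 0 to 1 when libraries were left out, the 1 being Rpl36 without KO replicate 1. No member passed the adjusted threshold in any omission (0 to 0), and 1 (Rpl30) did with near copies summed. Most of that sum was Gm12191, which passed the threshold by itself. Members with all KO above all WT numbered 7 after rescaling by the median of ratios and 5 to 14 over omissions. Those with all KO below all WT numbered 1 after that rescaling, 0 with quantile normalization, 1 with Rn45s out of the totals and 3 to 11 over omissions, where fewer libraries make separation easier.

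The log2 fold change of Rpl30 with near copies was 1.10 when centred on the member median (adjusted p = 0.0545), 1.15 without the trend (0.607) and 1.18 with the muscle covariate (0.254), and 1.10 to 1.22 over omissions. Rpl30 with Gm12191 gave 1.48 without the trend (adjusted p = 0.131) and 1.52 with the muscle covariate (0.0855), and 1.44 to 1.55 over omissions. The cause of these losses was not tested.

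With the replicate block, Rpl30 with near copies kept 1.15 (adjusted p = 0.235) and Rpl30 with Gm12191 kept 1.48 (0.0584). The group mean of each gene was subtracted before same-numbered WT and KO libraries were correlated. The correlations of these deviations were 0.38, -0.31 and -0.22 over all genes, so the numbers were not taken to pair mice. Over the members they were 0.11, 0.16 and 0.56. Deviations of a gene cancel out within a group, so these correlations are tied to each other. The block moved the counts of all genes at an unadjusted p below 0.05 from 152 higher and 260 lower to 177 and 414. Median-of-ratios rescaling made these 210 and 215, and quantile normalization 232 and 193. No result changed direction past its threshold. Depth limits the lowest members: a level of 0.881 CPM was 3 reads in the shallowest library.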
